A study of Mus musculus with 24 samples.

Results

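The genes described here are the DNA replication machinery of mouse primitive erythroid cells, the earliest red cell lineage of an embryo, which enter the circulation while still nucleated and still dividing. The set of 48 genes was listed by symbol and split by role into 9 origin licensing genes, 12 helicase genes, 2 genes of the firing kinase, 8 genes of polymerases and primase, 6 of the clamp and clamp loader, 3 of single-strand DNA binding, 2 of Okazaki fragment maturation and 6 of nucleotide supply. Of the 48, 46 had an annotated probe among 17583 genes with one, and Mcm3 and Gins1 had none. A gene with several probes was represented by the probe with the highest mean signal over the arrays with 1 round of amplification. After a filter that asked for a detection p under 0.05 on at least 3 arrays, 43 members and 9393 genes were tested over the arrays with 1 round, and 42 members and 8231 genes over those with 2 rounds. Orc1, Pola1 and Pole2 were the 3 members with a probe that was detected on no array.

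RNA was hybridised to 24 Illumina bead arrays, 1 sample per array. All samples were GFP(+) cells sorted from embryos of the genotype human epsilon globin::H2B-EGFP, in which a human embryonic globin promoter drives a fluorescent histone, so the sorted population is the one in which that promoter is active. RNA of E7.5 (n = 3) and E8.5 (n = 3) was amplified in 2 rounds. With 1 round there were 6 arrays of E8.5 and 3 of each later stage, at daily steps up to E12.5. Cells up to E9.5 came from digested whole embryos and later cells from embryonic blood. A replicate was a pool of embryos up to E10.5 and 1 embryo at E11.5 and E12.5, the labels name no treatment.

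A cell that is to divide first licenses its origins: the origin recognition complex (Orc1 to Orc6), Cdc6 and Cdt1 load the ring-shaped Mcm2 to Mcm7 helicase on DNA, and geminin (Gmnn) blocks Cdt1 once S phase has begun. The kinase Cdc7 with its activator Dbf4, together with Mcm10, Cdc45 and the GINS proteins, turns the loaded ring into a moving helicase. DNA polymerases alpha with primase, delta and epsilon then copy the strands, held by the sliding clamp PCNA that the RFC complex loads, while RPA covers the exposed single strand, Fen1 and Lig1 join Okazaki fragments, and ribonucleotide reductase and thymidylate enzymes supply deoxynucleotides. Primitive erythroid cells divide in the circulation for several days before they leave the cell cycle and condense their nuclei.

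The arrays with 2 rounds filled slide 1. E9.5 shared slide 2 with the first 3 replicates of E8.5, E12.5 shared slide 3 with its last 3, and slide 4 carried both E11.5 and E10.5. The arrays before E12.5 detected 12355 to 15387 of 45719 probes and the E12.5 arrays 8542 to 10570. Among the members, the E8.5 arrays of slide 3 minus those of slide 2 had a median log2 difference of 0.19, from -1.34 for Lig1 to 1.00 for Pcna, with 16 of 43 members over 0.5 in size. Of the 9 primitive erythroid markers, 8 had a probe, and these 8 were detected on every array with 1 round. In bulk samples a fall in the share of replicating cells and a fall in RNA per cell cannot be told apart. A level below is a background-corrected, quantile-normalised log2 signal, which can be compared between arrays for 1 probe and not between probes, and a gene was called changed at an adjusted p under 0.05 in limma.

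Over E8.5 to E12.5, most tested replication genes had their lowest mean level at E12.5: 41 of 43 under quantile normalisation, 27 with arrays scaled by their median and 31 with cyclic loess. How much of the fall came in the last day depended on the scaling. The member medians from E8.5 to E11.5 and from E11.5 to E12.5 were -0.46 and -1.70 under quantile normalisation, -0.45 and -0.64 with cyclic loess, -0.35 and -1.18 in the authors' processed values, and -0.66 and -0.61 with median scaling. A test over the 5 stages called 42 of the 43 tested members, against 77.9% of all genes tested, and Orc4 was the exception (adjusted p = 0.91). Under quantile normalisation, mean levels were highest at E8.5 for 23 members, at E9.5 for 4, at E10.5 for 12, at E11.5 for 3 and at E12.5 for Orc2 alone, and lowest at E12.5 for 41. The other two, Orc2 and Orc4, were lowest at E11.5. Among all genes tested, 40.3% were lowest and 36.5% highest at E12.5.

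**Figure D1:**
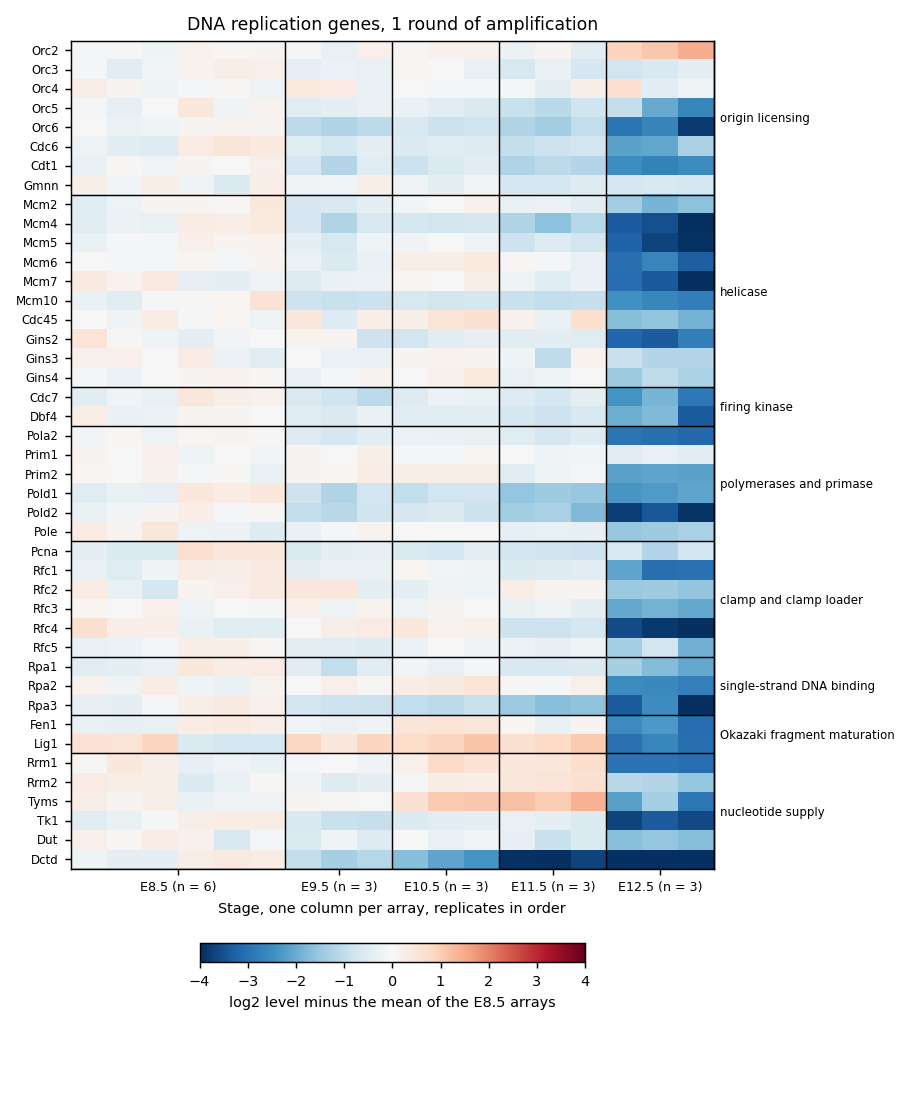
Heat map of the 43 tested members (rows, ordered by role) on the 18 arrays with 1 round of amplification (columns, ordered by stage). Colour is the log2 level minus the mean of the E8.5 arrays, limited to 4 in either direction; the E12.5 columns are blue for most members, Orc2 is red there, and Dctd is already dark at E11.5.

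From E11.5 to E12.5, 36 of the 43 tested members fell and 1, Orc2, rose. The member median was -1.70 on the log2 scale against -0.02 over all genes tested. With median scaling the member calls were 23 lower and 14 higher, against 559 and 7330 of all 9393 genes tested. With cyclic loess they were 22 lower and 1 higher, against 1034 and 1169. Under quantile normalisation 50.9% of all genes were called in this step, 24.1% lower and 26.8% higher. The arrays of the 2 stages did not overlap for 36 members that were lower and 1 that was higher, against 28.2% and 27.8% of all genes. Orc3, Orc4, Gmnn, Prim1, Pcna and Dctd were not called. From E8.5 to E12.5, 41 members fell and Orc2 rose, with a member median of -2.24 against -0.06 for all genes. Median scaling gave 30 members lower and 9 higher, against 1376 and 6910 of all genes. Cyclic loess gave 31 lower and 0 higher, against 1922 and 1336. For that longer interval, under quantile normalisation, 72.6% of all genes were called, 38.4% lower and 34.2% higher. The arrays did not overlap for 40 members lower and 1 higher, against 32.1% and 27.8% of all genes.

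E11.5 was hybridised on slide 4 and E12.5 on slide 3, so stage and slide cannot be told apart in the last step. Between E8.5 and E12.5 the 3 arrays of each on slide 3 gave 40 members lower and 1 higher, with a member median of -2.23. These E8.5 samples were pools of digested embryos and the E12.5 samples blood of 1 embryo each, so source and pooling changed with stage. Median scaling moved the median of all genes tested by 1.90 from E11.5 to E12.5 and by 1.72 from E8.5 to E12.5. Relative to those shifts the member medians were -2.51 and -2.92, and 37 and 42 of 43 members lay below the median of all genes. With cyclic loess the relative medians were -0.66 and -1.10, with 32 and 40 members below, and under quantile normalisation -1.68 and -2.18, with 41 and 41 below. Detection does not depend on the scaling, but it does depend on the genes kept. Of the 43 members, 41 to 43 were detected on each array of E8.5 to E11.5, and 28, 24 and 20 on the E12.5 arrays. Of all genes tested, 68.8% to 87.2% were detected on the earlier arrays and 55.6% to 65.5% on the E12.5 arrays. Members and genes had been kept for detection on at least 3 arrays, and most arrays preceded E12.5. That filter favours genes detected early, so these shares are no separate test of the fall. The members with a probe that it left out, Orc1, Pola1 and Pole2, were detected on no array.

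Markers of other cells differed between the same stages. Summed over 8 visceral endoderm genes, the background-corrected signal ran from 115 to 577 at E8.5 and from 49.1 to 58.7 at E12.5, with 53 to 54.7 at E11.5, and 7 of the 8 were detected on no E12.5 array and 0 on all. Megakaryocyte genes summed to 76.5 to 122 at E8.5, 219 to 255 at E11.5 and 937 to 1490 at E12.5, with 2 of 5 detected on all E12.5 arrays and Pf4 and Gp9 on none. Endothelial genes summed to 267 to 393 at E8.5, 1050 to 1300 at E11.5 and 1250 to 1460 at E12.5. Of the 7, 1 was detected on all E12.5 arrays and 6 on none. Among the 5 tested, 4 were called lower and 1 higher at E12.5 than at E8.5, with a median of -0.53. At E11.5 2 were lower and 1 higher than at E8.5. The 3 epiblast and mesoderm genes summed to 232 to 625 at E8.5, 17.9 to 32.3 at E11.5 and 36 to 58.1 at E12.5. Of these genes, Pou5f1 and Mixl1 were detected on no array of any of these stages, E8.5 included. The 4 macrophage and leukocyte genes summed to 51.8 to 114 at E8.5 and 24.6 to 32.4 at E12.5, where 0 were detected on any array. The part of these cells in the members' values was not tested.

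**Figure D2:**
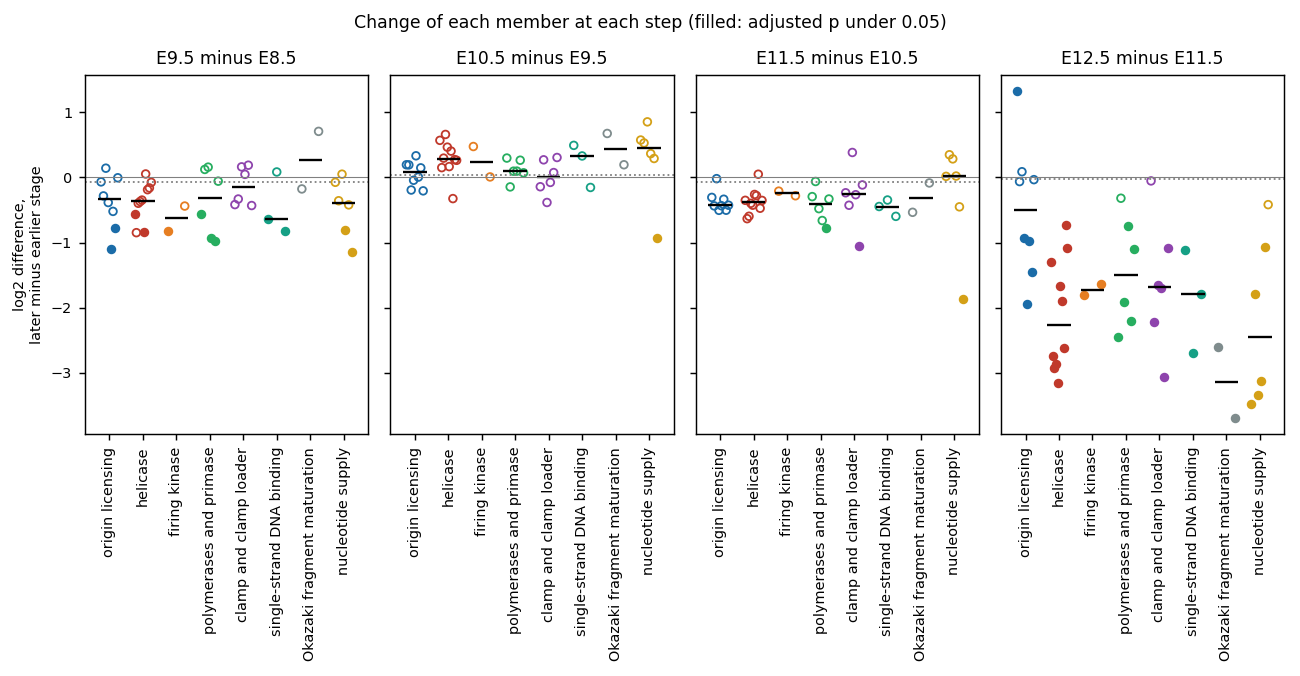
Log2 difference of each tested member at each daily step, by role, for the arrays with 1 round of amplification. Points are members (filled where the adjusted p was under 0.05), black bars role medians, and the dotted line the median of all genes tested; the first 3 steps hold 12, 1 and 3 filled points and the last 37.

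By role, the E8.5 to E12.5 medians under quantile normalisation were -2.79 for the helicase (10 of 10 tested members lower) and -1.25 for origin licensing (6 of 8 lower, 1 higher). They were -2.36 for the firing kinase (2 of 2), -2.19 for polymerases and primase (6 of 6) and -1.74 for the clamp and clamp loader (6 of 6). For RPA the median was -2.63 (3 of 3), for Okazaki fragment maturation -2.76 (2 of 2) and for nucleotide supply -2.56 (6 of 6). With median scaling these medians were, in the same order, -1.78, 0.62, -1.66, -0.40, -0.90, -1.83, -1.84 and -1.38. With cyclic loess they were -1.49, -0.53, -1.54, -0.71, -0.97, -1.15, -1.52 and -1.16. Of the quantile-normalised calls, those of Orc3, Gmnn, Cdc45, Gins3, Prim1, Prim2, Pole, Pcna, Rfc3 and Dut changed sign with median scaling. Prim1 alone also changed sign with cyclic loess, under which those of Orc2, Orc3, Gmnn, Cdc45, Gins3, Prim2, Pole, Pcna, Rfc3 and Dut were lost, and that of Orc5 was lost with median scaling. Of the calls from E11.5 to E12.5 with values below, those of Pola2, Pold2, Rfc1 and Rpa3 were also lost with median scaling, while with cyclic loess those of Orc2, Cdc45, Prim2, Pold1, Pold2, Rfc1, Rpa1 and Rpa3 were lost and those of Mcm10, Gins3 and Dut were at or above 0.

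The share of the fall that had been reached by E11.5 ranged widely and moved with the scaling. Under quantile normalisation, for the 41 members that were lower at E12.5, the log2 difference E11.5 minus E8.5 was a median 20.5% of the difference E12.5 minus E8.5, against 57.4% over the 3606 genes that were lower (quartiles 22.7% and 87.3%). With median scaling the medians were 42.2% for 30 members and 90.2% for 1376 genes, and with cyclic loess 31.4% for 31 members and 110% for 1922 genes. Under quantile normalisation the median share was 17.1% for the helicase, 21.5% for polymerases and primase, 18% for the clamp and its loader and 48.2% for origin licensing. For nucleotide supply it was -2.75%, with a range from -55.4% for Tyms, which was higher at E11.5 than at E8.5, to 90.4% for Dctd. The order of the roles moved with the scaling. With median scaling the helicase stood at 29.1% (8 genes) and polymerases and primase at 89% (3 genes). The clamp and its loader stood at 44.8% (4), origin licensing at 55% (3) and nucleotide supply at -24.9% (5). With cyclic loess these medians were 23% (8), 69% (3), 27.5% (4), 60.9% (4) and -54.9% (5). Both differences share the E8.5 arrays, and members that were undetected at E12.5 have only a bound on their total fall.

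**Figure D3:**
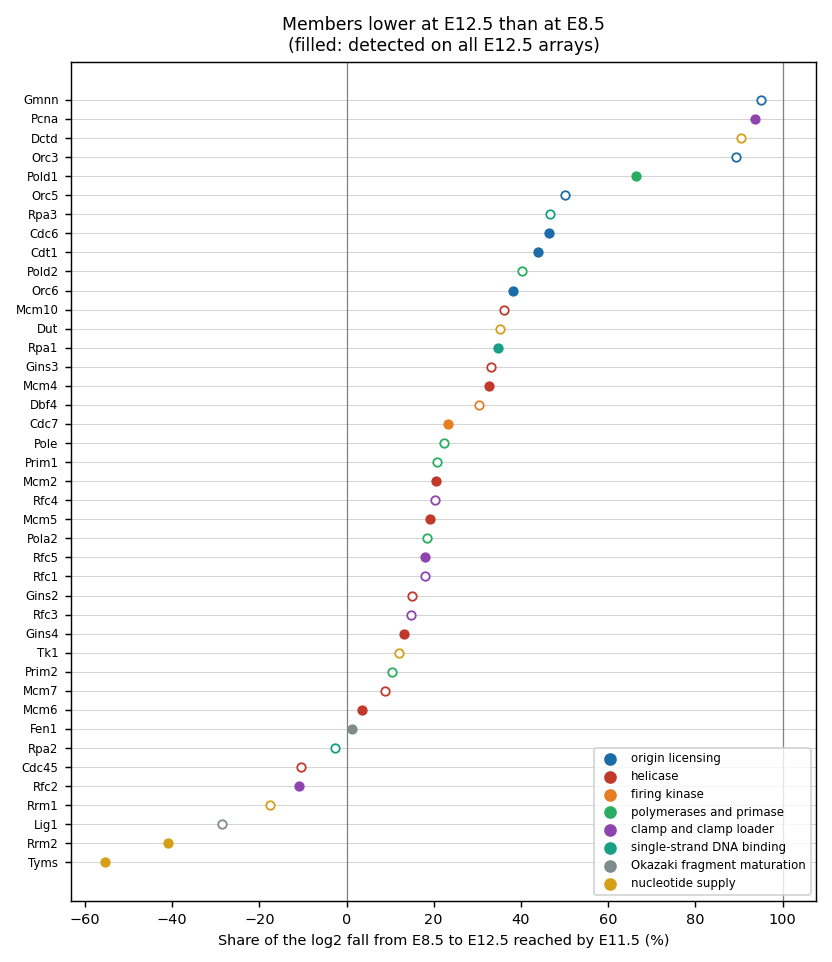
Share of each member's log2 fall from E8.5 to E12.5 that was reached by E11.5, in percent, under quantile normalisation, coloured by role. Filled points are members detected on all E12.5 arrays; Gmnn, Pcna, Dctd and Orc3 lie between 89.3% and 95%, and Rrm1, Lig1, Rrm2 and Tyms between -17.5% and -55.4%.

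Promoter sequence is shown because so many members fell in the same step. RefSeq promoters of build GRCm38.p6, from 250 bases before to 50 after a start, were given for 40 of the 48 members. E2F factors are textbook activators of S-phase genes, and an E2F-like word (the word TTCCCGC, the variant TTCGCGC, the further word TTGCCGC, or finally the word TTGGCGC, on either strand and with overlapping words counted separately) was present in 27 of 51 member promoters (52.9%), of 24 members, and in 9.57% of 32851 promoters of all genes. The NF-Y word CCAAT was present in 52.9% against 37.4%, and the CHR word TTTGAA in 15.7% against 17.9%. A match describes letters and not binding. Printed here are 4 promoters, written 5′ to 3′ in the direction of transcription with E2F-like words in capitals: those of Mcm5 (chr8:75109259-75109558, plus strand, 3 words), Mcm6 (chr1:128359656-128359955, minus strand, 5 words) and Rrm1 (chr7:102441445-102441744, plus strand, 1 word), the members with a word and the smallest p over the stages, and 1 of the 2 promoters of Orc2 (chr1:58501377-58501676, minus strand, 0 words), the member that rose.
Mcm5: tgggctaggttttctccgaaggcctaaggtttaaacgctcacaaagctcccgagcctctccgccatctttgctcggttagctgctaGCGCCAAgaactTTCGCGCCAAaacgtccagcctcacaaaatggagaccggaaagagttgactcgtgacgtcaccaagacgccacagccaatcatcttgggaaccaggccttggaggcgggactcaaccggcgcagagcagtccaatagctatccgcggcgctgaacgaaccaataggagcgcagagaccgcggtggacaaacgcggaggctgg
Mcm6: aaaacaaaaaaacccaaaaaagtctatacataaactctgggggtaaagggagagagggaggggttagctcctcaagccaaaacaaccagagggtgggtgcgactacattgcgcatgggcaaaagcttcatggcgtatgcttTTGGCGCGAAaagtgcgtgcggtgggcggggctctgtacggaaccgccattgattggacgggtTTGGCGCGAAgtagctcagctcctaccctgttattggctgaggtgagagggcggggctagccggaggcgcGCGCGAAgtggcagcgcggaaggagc
Rrm1: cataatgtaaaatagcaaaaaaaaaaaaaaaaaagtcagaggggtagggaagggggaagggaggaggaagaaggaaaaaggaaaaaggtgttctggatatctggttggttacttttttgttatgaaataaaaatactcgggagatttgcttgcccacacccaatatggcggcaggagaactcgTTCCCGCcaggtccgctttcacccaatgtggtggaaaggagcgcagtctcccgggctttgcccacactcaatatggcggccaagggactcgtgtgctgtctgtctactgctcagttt
Orc2: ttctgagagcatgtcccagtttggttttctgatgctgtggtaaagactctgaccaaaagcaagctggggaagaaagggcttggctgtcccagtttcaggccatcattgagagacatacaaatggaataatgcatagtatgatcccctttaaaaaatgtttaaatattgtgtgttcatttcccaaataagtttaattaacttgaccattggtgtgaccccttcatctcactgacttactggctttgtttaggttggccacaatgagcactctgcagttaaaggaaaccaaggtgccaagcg
The capitals of Mcm5 begin at positions -164 and -152 from the start, where the second run holds a pair of overlapping words on opposite strands, and Mcm6 carries such a pair at -109 and again at -46. Orc5, Orc6, Mcm2, Mcm10, Cdc45, Dbf4, Pola2, Pold2, Pcna, Rfc5, Rpa1, Tyms, Tk1, Dut and Dctd had a promoter in the table without any of these words, and each of them was lower at E12.5 than at E8.5 under quantile normalisation, Cdc45, Pcna and Dut being higher with median scaling.

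All 10 tested helicase genes fell in the last step under quantile normalisation, 7 with cyclic loess, and with median scaling 7 fell and 2 rose. Mcm5, a subunit of the Mcm2 to Mcm7 ring, had a lowest, median and highest level of 10.87, 11.14 and 11.32 over the 6 E8.5 arrays, 10.77, 10.48 and 10.95 at E9.5, 10.99, 11.13 and 10.97 at E10.5, 10.30, 10.60 and 10.40 at E11.5, and 7.91, 7.42 and 7.19 at E12.5. The E12.5 arrays lay more than 2 units under all others, a difference from E11.5 of -2.93 (SE 0.21, adjusted p = 5.6e-10). Mcm6, whose promoter holds 5 words, had 8.91, 8.95 and 9.08 at E8.5, 8.73, 8.40 and 8.68 at E9.5, 9.23, 9.21 and 9.35 at E10.5, 9.01, 8.92 and 8.67 at E11.5, and 5.95, 6.35 and 5.68 at E12.5. Its E9.5 arrays lay just below the E8.5 range, its E10.5 arrays just above it and its E11.5 arrays in or just below it, and then it fell by 2.87 (SE 0.19, adjusted p = 1.3e-10).

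Mcm4, another ring subunit, was called lower at E11.5 than at E8.5 by its chosen probe and not by its second. The chosen probe's levels at E8.5 were 10.74, 11.16 and 11.56 (lowest, median, highest), then 10.48, 9.94 and 10.51 at E9.5, 10.48, 10.42 and 10.48 at E10.5, 9.95, 9.51 and 10.02 at E11.5 and 7.84, 7.63 and 5.80 at E12.5. All later arrays lay below every E8.5 array, the difference E11.5 minus E8.5 was -1.33 (SE 0.31, adjusted p = 0.0011) and E12.5 minus E8.5 was -4.07 (SE 0.31, adjusted p = 7.9e-11). The difference at E9.5, -0.85, was not called, and the second probe gave -0.36 at E11.5 (adjusted p = 0.23) and -1.07 at E12.5 (adjusted p = 0.0003). Mcm7 ran from 8.67 over 9.03 to 9.40 at E8.5 and read 8.51, 8.76 and 8.80 at E9.5, 9.12, 9.06 and 9.28 at E10.5, 8.86, 8.54 and 8.78 at E11.5, and 5.98, 5.68 and 5.04 at E12.5, with 2 of the 3 E12.5 arrays detected. Its levels overlapped between E8.5 and E11.5, and it fell by 3.16 in the last step (SE 0.24, adjusted p = 1.3e-09). Mcm10, which acts when the ring is activated, and Cdc45, which travels with it, were detected on no E12.5 array and were at least 2.41-fold and at least 2.66-fold lower there than at E11.5 under quantile normalisation, but with median scaling both were higher at E12.5 (log2 0.64 and 0.47). Among the GINS genes, Gins2 fell by 2.63 and Gins4 by 1.08 in that step (adjusted p = 2.6e-08 and 5.3e-05), and Gins3 was at least 1.13-fold lower (adjusted p = 0.011), a call that was lost with slide as a random block and without E11.5 replicate 1 or 3 and that median scaling turned to 1.95 higher. Bounds of this kind depend on the scaling: with cyclic loess that of Cdc45 was 1.32-fold and Mcm10 and Gins3 had none.

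**Figure D4:**
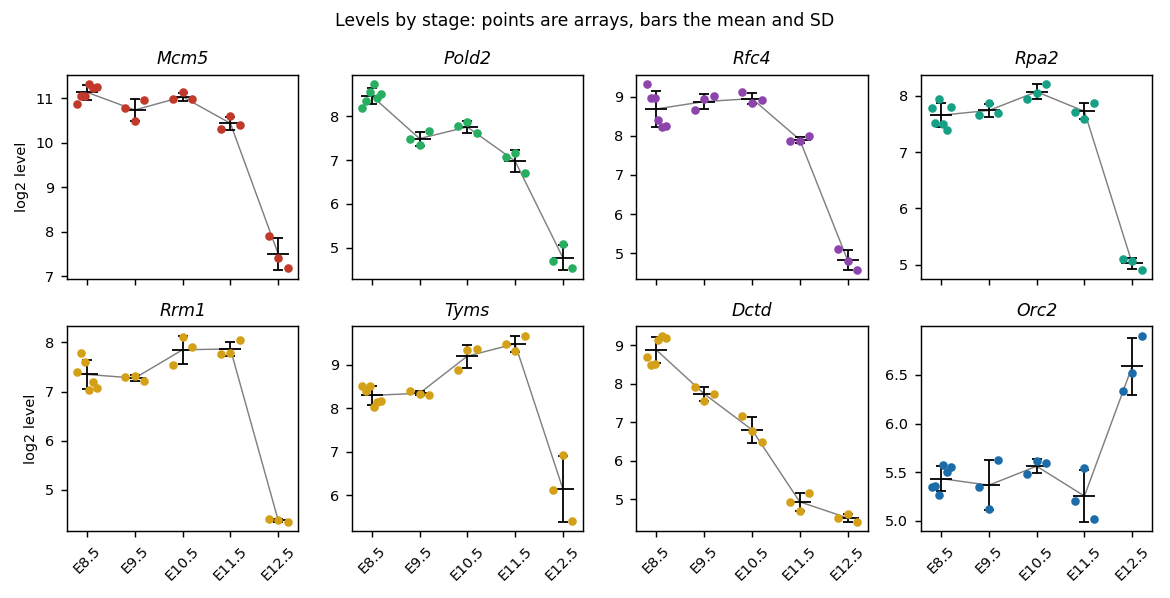
Levels of 8 members by stage on the arrays with 1 round of amplification. Points are arrays, bars the mean and SD, and each panel has its own log2 axis; Mcm5, Rpa2, Rrm1 and Tyms drop between E11.5 and E12.5, Dctd steps down at each stage to E11.5, and Orc2 is the panel that rises.

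Origin licensing split under quantile normalisation. Some genes declined early, others changed little or did not pass the test, and 1 gene rose. With median scaling, 5 of the 8 tested licensing genes were called higher and 2 lower from E11.5 to E12.5. From E8.5 to E12.5 that scaling gave 4 higher and 3 lower. Cyclic loess gave 0 higher in both comparisons, with 2 lower from E11.5 and 4 from E8.5. Orc6, the smallest subunit of the origin recognition complex, had 9.19, 9.48 and 9.54 at E8.5 (lowest, median, highest), 8.37, 8.20 and 8.38 at E9.5, 8.80, 8.54 and 8.61 at E10.5, 8.20, 8.01 and 8.44 at E11.5 and 6.49, 6.74 and 5.59 at E12.5. No later array reached the E8.5 range, and the gene fell by 1.10 at E9.5 (SE 0.20, adjusted p = 0.00029), with a further difference of -1.94 at E12.5 (SE 0.23, adjusted p = 4.9e-07). Cdt1, the loading factor that geminin blocks, had 8.94, 9.23 and 9.40 at E8.5, then 8.52, 8.03 and 8.71, then 8.33, 8.62 and 8.75, then 8.0, 8.16 and 8.03, and 6.71, 6.48 and 6.65 at E12.5. It too left its E8.5 range at E9.5, with a fall of 0.78 (SE 0.17, adjusted p = 0.002), and fell by 1.45 in the last step (SE 0.20, adjusted p = 2.6e-06).

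Orc2, another subunit of the same complex, went the other way. It had 5.27, 5.43 and 5.58 at E8.5, 5.35, 5.12 and 5.63 at E9.5, 5.48, 5.61 and 5.59 at E10.5, 5.2, 5.54 and 5.02 at E11.5, and 6.33, 6.52 and 6.90 at E12.5. The E12.5 arrays lay above all others, a rise of 1.33 from E11.5 (SE 0.19, adjusted p = 3.5e-06) and of 1.15 from E8.5 (adjusted p = 1.1e-06), the latter 0.16 with cyclic loess (adjusted p = 0.51) and 1.67 with median scaling. Orc4 had 5.2, 5.42 and 5.70 at E8.5, 5.82, 5.73 and 5.14 at E9.5, 5.43, 5.34 and 5.35 at E10.5, 5.34, 5.06 and 5.66 at E11.5 and 6.08, 4.96 and 5.28 at E12.5, and its stages overlapped throughout. Orc3 had 4.93, 5.42 and 5.61 at E8.5, 5.03, 5.15 and 5.08 at E9.5, 5.44, 5.35 and 5.07 at E10.5, 4.73, 5.11 and 4.69 at E11.5 and 4.6, 4.77 and 4.98 at E12.5, where it was detected on no array and at least 1.27-fold lower than at E8.5 under quantile normalisation (adjusted p = 0.0016), but 1.60 higher on the log2 scale with median scaling. Geminin was detected on no E11.5 or E12.5 array and was at least 1.55-fold lower at E11.5 than at E8.5 (adjusted p = 0.001).

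Both subunits of the firing kinase fell under every scaling run. Cdc7, the catalytic subunit, had 7.93, 8.38 and 8.82 at E8.5, 7.78, 7.55 and 7.30 at E9.5, 7.86, 8.13 and 8.07 at E10.5, 7.83, 7.64 and 7.96 at E11.5 and 5.98, 6.5 and 5.51 at E12.5. Dbf4, its activator, had 8.08, 8.41 and 8.63 at E8.5, 7.88, 7.76 and 8.10 at E9.5, 7.94, 7.90 and 7.93 at E10.5, 7.66, 7.52 and 7.75 at E11.5 and 6.4, 6.57 and 5.03 at E12.5. The E12.5 arrays lay under all earlier ones for both genes, with falls from E11.5 of 1.81 (SE 0.25, adjusted p = 2.3e-06) for Cdc7 and 1.64 (SE 0.27, adjusted p = 2.6e-05) for Dbf4.

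Among polymerases, Pold1 and Pold2, subunits of polymerase delta, fell at E9.5, the call of Pold1 being lost within slide 2 and with slide as a fixed block (adjusted p up to 0.059). The other delta subunits, Pold3 (-0.26, adjusted p = 0.32) and Pold4 (-0.01, adjusted p = 0.95), were not called there. Pold2, the accessory subunit of polymerase delta, had 8.20, 8.47 and 8.74 at E8.5, 7.47, 7.34 and 7.66 at E9.5, 7.78, 7.87 and 7.61 at E10.5, 7.08, 7.16 and 6.69 at E11.5 and 4.69, 5.09 and 4.54 at E12.5, where 1 of 3 arrays detected it. Its falls were 0.97 at E9.5 (SE 0.17, adjusted p = 0.00018), 0.78 at E11.5 (SE 0.20, adjusted p = 0.011) and 2.21 at E12.5 (SE 0.20, adjusted p = 1.2e-08). Pold1, the catalytic subunit, had 8.66, 9.15 and 9.57 at E8.5, 8.33, 7.96 and 8.40 at E9.5, 8.17, 8.41 and 8.40 at E10.5, 7.62, 7.74 and 7.63 at E11.5 and 6.82, 6.88 and 7.04 at E12.5. Its levels overlapped between E9.5 and E10.5 and otherwise stepped down, 66.5% of its fall from E8.5 being reached by E11.5, and the last step was -0.75 (SE 0.23, adjusted p = 0.0095).

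Polymerase alpha and primase were undetected at E12.5 for 2 of their 3 tested genes. Pola2, the regulatory subunit of polymerase alpha, had 7.27, 7.54 and 7.58 at E8.5, 6.95, 6.77 and 7.04 at E9.5, 7.24, 7.22 and 7.19 at E10.5, 7.0, 6.82 and 6.95 at E11.5 and 4.56, 4.48 and 4.35 at E12.5, on none of which it was detected. It fell by 0.56 at E9.5 (SE 0.14, adjusted p = 0.0056), and was at least 3.72-fold lower at E12.5 than at E11.5 (adjusted p = 1.3e-10), a bound of 1.44-fold with cyclic loess and 1.03-fold with median scaling. Prim2, the large primase subunit, had 6.30, 6.64 and 6.78 at E8.5, 6.70, 6.68 and 6.91 at E9.5, 6.88, 6.82 and 6.87 at E10.5, 6.19, 6.44 and 6.51 at E11.5 and 4.45, 4.49 and 4.46 at E12.5. It was detected on no E12.5 array and at least 2.54-fold lower there than at E11.5 (adjusted p = 8.7e-09), a difference that median scaling turned to 0.53 higher. Prim1, the catalytic primase subunit, changed least of the role, with -0.32 from E11.5 to E12.5 (SE 0.15, adjusted p = 0.079).

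The clamp loader genes with values here fell in the last step, while Pcna was not called. Rfc4, a small subunit of the clamp loader, had 8.21, 8.68 and 9.32 at E8.5, 8.67, 8.93 and 9.02 at E9.5, 9.11, 8.83 and 8.90 at E10.5, 7.85, 7.86 and 7.99 at E11.5 and 5.10, 4.82 and 4.58 at E12.5. It fell by 1.05 at E11.5 (SE 0.25, adjusted p = 0.0077) and fell by 3.07 at E12.5 (SE 0.25, adjusted p = 3.3e-09), and a second Rfc4 probe fell by 0.69 in the last step. Rfc1, the large loader subunit, had 6.87, 7.4 and 7.72 at E8.5, 6.96, 7.06 and 7.05 at E9.5, 7.43, 7.23 and 7.23 at E10.5, 6.82, 6.84 and 6.94 at E11.5 and 5.25, 4.33 and 4.38 at E12.5. It overlapped its E8.5 range until E10.5, lay at or under its low end at E11.5 on 2 of 3 arrays, and fell by 2.22 at E12.5 (SE 0.24, adjusted p = 1.4e-07).

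Rfc3 was the loader subunit whose probes disagreed in their call between E8.5 and E12.5. Its chosen probe had 6.28, 6.46 and 6.68 at E8.5, 6.68, 6.28 and 6.60 at E9.5, 6.27, 6.57 and 6.49 at E10.5, 6.17, 6.27 and 6.09 at E11.5 and 4.42, 4.59 and 4.41 at E12.5, detected on none of the last. It was at least 2.71-fold lower at E12.5 than at E8.5 (adjusted p = 3.6e-11) under quantile normalisation and 0.26 higher with median scaling, and the second probe was 0.39 higher (adjusted p = 0.03). Of 19 other probes of members called between E8.5 and E12.5, the other 18 had the call of the chosen probe. At E11.5 the difference of the chosen Rfc2 probe from E8.5 was not called (0.16), while its other probes were called higher (0.93 and 0.55, adjusted p = 0.00052 and 0.025). Pcna, the clamp itself, had 6.13, 6.71 and 7.36 at E8.5, 6.13, 6.34 and 6.36 at E9.5, 6.12, 5.98 and 6.30 at E10.5, 5.94, 5.91 and 5.86 at E11.5 and 6.04, 5.53 and 5.97 at E12.5. It differed between the E8.5 slides by 1.00, and its last step was -0.05 (SE 0.27, adjusted p = 0.89).

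All 3 subunits of the single-strand binding complex RPA were lower at E12.5 than at E8.5 under every scaling run. Rpa2, the middle subunit, had 7.39, 7.64 and 7.94 at E8.5, 7.66, 7.86 and 7.69 at E9.5, 7.95, 8.05 and 8.21 at E10.5, 7.71, 7.59 and 7.86 at E11.5 and 5.10, 5.06 and 4.91 at E12.5. Rpa3, the smallest subunit, had 8.44, 8.89 and 9.16 at E8.5, 8.05, 8.0 and 7.96 at E9.5, 7.85, 7.78 and 7.92 at E10.5, 7.37, 7.16 and 7.22 at E11.5 and 5.49, 6.30 and 4.58 at E12.5. Rpa2 overlapped its E8.5 range at E11.5 (difference 0.07, adjusted p = 0.75) and then fell by 2.70 (SE 0.18, adjusted p = 1.8e-10), whereas the difference of Rpa3 at E11.5 was already -1.57 (SE 0.25, adjusted p = 1.2e-05). The other Rpa2 probes fell less in the last step, by 0.36 and 1.59 (adjusted p = 0.029 and 2.4e-06). Rpa1, the large subunit, fell by 1.11 in the last step (SE 0.25, adjusted p = 0.00068).

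The 2 genes of Okazaki fragment maturation were not lower at E11.5 than at E8.5 and fell in the last step under every scaling run. Fen1, the flap nuclease, had 9.54, 9.84 and 10.23 at E8.5, 9.75, 9.61 and 9.67 at E9.5, 10.35, 10.40 and 10.32 at E10.5, 9.92, 9.58 and 9.96 at E11.5 and 7.30, 7.55 and 6.80 at E12.5, a last step of -2.60 (SE 0.23, adjusted p = 1.2e-08). Its E12.5 arrays lay apart from all others. Lig1, the replicative ligase, had 6.82, 7.53 and 8.40 at E8.5, 8.38, 7.96 and 8.41 at E9.5, 8.29, 8.41 and 8.64 at E10.5, 8.16, 8.33 and 8.59 at E11.5 and 4.54, 4.93 and 4.52 at E12.5. Lig1 was detected on no E12.5 array and was at least 10.1-fold lower there than at E11.5 (adjusted p = 1.7e-08), a bound of 3.3-fold with cyclic loess and 2.87-fold with median scaling, and its other probes stood at -1.51 and -1.95. Its E8.5 arrays fell apart by slide, 8.10 to 8.40 on slide 2 and 6.82 to 6.95 on slide 3.

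Nucleotide supply held the widest spread of any role at E11.5. Dctd, deoxycytidylate deaminase, which makes the precursor of thymidylate, had 8.48, 8.90 and 9.24 at E8.5, 7.92, 7.54 and 7.74 at E9.5, 7.16, 6.76 and 6.49 at E10.5, 4.91, 4.70 and 5.17 at E11.5 and 4.5, 4.62 and 4.41 at E12.5. No stages overlapped, and the steps were -1.14 (SE 0.20, adjusted p = 0.00018), -0.93 (SE 0.23, adjusted p = 0.031) and -1.87 (SE 0.23, adjusted p = 2e-05), while the last step, into arrays that did not detect it, was not called (adjusted p = 0.13). At E12.5 Dctd was at least 14.3-fold lower than at E8.5 (adjusted p = 1.5e-14), a bound of 5.32-fold with cyclic loess and 4.81-fold with median scaling.

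Tyms, thymidylate synthase, rose while Dctd fell. It had 8.03, 8.28 and 8.52 at E8.5, 8.40, 8.33 and 8.32 at E9.5, 8.89, 9.34 and 9.37 at E10.5, 9.48, 9.32 and 9.67 at E11.5 and 6.11, 6.93 and 5.40 at E12.5. The E11.5 arrays lay above every E8.5 array, by 1.19 in the mean (SE 0.23, adjusted p = 0.00015), and the last step was -3.34 (SE 0.27, adjusted p = 2.7e-09). Rrm1, the large subunit of ribonucleotide reductase, had 7.03, 7.30 and 7.78 at E8.5, 7.30, 7.32 and 7.2 at E9.5, 7.54, 8.10 and 7.91 at E10.5, 7.77, 7.79 and 8.04 at E11.5 and 4.41, 4.40 and 4.35 at E12.5, detected on none of the last and at least 7.14-fold lower than at E11.5 (adjusted p = 3.8e-11), a bound of 2.68-fold with cyclic loess and 2.06-fold with median scaling.

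Rrm2, the small reductase subunit, had 7.5, 8.18 and 8.36 at E8.5, 7.86, 7.53 and 7.67 at E9.5, 8.01, 8.33 and 8.31 at E10.5, 8.5, 8.55 and 8.66 at E11.5 and 6.94, 6.88 and 6.5 at E12.5. It was detected on all E12.5 arrays, and it fell by 1.79 in the last step (SE 0.22, adjusted p = 7.2e-07). Tk1, the thymidine kinase of dividing cells, had 7.72, 8.28 and 8.51 at E8.5, 7.59, 7.30 and 7.28 at E9.5, 7.65, 7.76 and 7.85 at E10.5, 7.90, 7.82 and 7.61 at E11.5 and 4.48, 4.88 and 4.59 at E12.5. It fell by 0.81 at E9.5 (SE 0.18, adjusted p = 0.0023), while its other probe was not called there (-0.37, adjusted p = 0.095). It was at least 6.71-fold lower at E12.5, where no array detected it, than at E11.5 (adjusted p = 1.8e-10), a bound of 2.28-fold with cyclic loess and 1.93-fold with median scaling. Dut, which removes deoxyuridine triphosphate, was at least 1.45-fold lower at E12.5 than at E11.5 (adjusted p = 0.00022) and 1.5 higher on the log2 scale with median scaling.

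The earlier steps held fewer calls. From E8.5 to E9.5, 12 of 43 members fell and 0 rose, with a median of -0.36 against -0.06 over all genes, of which 19.9% were called, 12.3% lower and 7.53% higher. The 12 were Orc6, Cdt1, Mcm2, Mcm10, Cdc7, Pola2, Pold1, Pold2, Rpa1, Rpa3, Tk1 and Dctd, and 14 members lower and 0 higher did not overlap between the stages, against 12.6% and 8.06% of all genes. These counts rest on the chosen probes. Another Rfc2 probe was called higher (0.71, adjusted p = 0.015), while the chosen probe (0.16) and a further probe (0.36, adjusted p = 0.24) were not. With slide as a fixed block 6 members were called, all lower, and the calls of Mcm2, Cdc7, Pola2, Pold1, Rpa1, Rpa3 and Tk1 were lost. Within slide 2 those of Mcm2, Cdc7, Pola2, Pold1, Rpa1 and Tk1 were lost. Visceral endoderm genes summed to 63.2 to 124 at E9.5 against 115 to 577 at E8.5. Of the 8, 1 was detected on all E9.5 arrays and 3 on none. Epiblast and mesoderm genes summed to 71.7 to 115 against 232 to 625, with Pou5f1 and Mixl1 detected on no array of either stage. Endothelial genes summed to 798 to 1330 against 267 to 393. Of 7 endothelial genes, 1 was detected on all E9.5 arrays and Cdh5, Tek and Tie1 on none. Among the 5 tested, 1 was called higher and 1 lower, with a median of -0.27. The part of such cells in the members' values was not tested. Orc6, Cdt1, Mcm10, Pold2 and Dctd were called in all 26 alternatives, whereas Rpa1 and Rpa3 were lost without any one of the 3 E9.5 arrays, Mcm2 without replicate 1 or 2, Pola2 without replicate 2 and Cdc7 without replicate 3.

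From E9.5 to E10.5, when the source changed from digested embryos to blood, the member median was 0.20 against 0.04 for all genes. Dctd was the 1 member called, lower, while 0 were called higher, and of all genes 2.16% were called, 0.607% lower and 1.55% higher. With median scaling or cyclic loess 1 member was called higher beside Dctd. The call was lost without any one of the 3 E9.5 arrays or of E10.5 replicates 2 and 3, and without E12.5 replicate 2 or 3, which share the fit, 3 members were called, 2 of them higher. In 18 members the E10.5 arrays all lay above the E9.5 arrays and in 2 all below, against 20.5% and 10.8% of all genes, so the members' upward share was above that of all genes while none passed the test upward.

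From E10.5 to E11.5, both on slide 4, Dctd, Rfc4 and Pold2 fell and 0 members rose by their chosen probes. The member median was -0.35 against -0.06 for all genes. Samples changed here from pools of embryos to 1 embryo each. A second Rrm2 probe was called higher (0.92, adjusted p = 0.01) and a second Orc5 probe lower (-1.04, adjusted p = 0.0071). The chosen probes of both genes were not called. Of all genes 11.8% were called, 7.49% lower and 4.28% higher. In 27 members the E11.5 arrays lay below all E10.5 arrays and in 2 above, against 28.4% and 15.8% of all genes. A fit on these 2 stages alone called 22 members lower and 2 higher, and of all 9393 genes tested 1782 lower and 1003 higher. In the shared fit without E10.5 replicate 1, Dctd was the 1 call left. Pold2 was also lost without E10.5 replicate 2 or E11.5 replicate 3.

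Across the whole interval from E8.5 to E11.5, median scaling gave 32 members lower and 1 higher, against 4900 and 1308 of all 9393 genes tested. Under quantile normalisation 20 members fell and 4 rose, against 46.3% of all genes called, 28% lower and 18.3% higher. The member median was -0.46 against -0.08 for all genes, and 18 members lower and 2 higher did not overlap, against 25.6% and 17.7% of all genes. The largest falls were those of Dctd (-3.95), Rpa3 (-1.57) and Pold1 (-1.49). By the chosen probes, 6 of the 8 tested licensing genes but 3 of the 10 tested helicase genes were lower. The helicase count depends on that choice. Another Gins2 probe was called lower (-0.97, adjusted p = 0.0004), while the chosen (-0.46) and a further probe (-0.37, adjusted p = 0.1) were not. Mcm4 was among the helicase genes counted, and its second probe was not called (-0.36, adjusted p = 0.23). The 4 that rose were Tyms, Lig1 (0.82, adjusted p = 0.025), Rrm1 (0.52, adjusted p = 0.018) and Rrm2 (0.52, adjusted p = 0.027). The Lig1 arrays of the 2 stages overlapped. The call of Tyms held in all 24 alternatives run for it, while Lig1, Rrm1 and Rrm2 were no longer called with median scaling, with slide as a random block or with the E8.5 arrays of slide 2 alone. Leaving out E11.5 replicate 3 also ended the calls of all 3, replicate 2 those of Lig1 and Rrm2, and replicate 1 that of Rrm2. These losses concern the chosen probes. On the same arrays in the main fit, a second Rrm2 probe was higher by 1.54 (adjusted p = 6.1e-07). The other Lig1 probes were higher by 0.69 and 0.64 (adjusted p = 0.032 and 0.016).

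Between E7.5 and E8.5, measured after 2 rounds of amplification and not on a scale shared with the other arrays, 6 of 42 members rose and 1 fell, with a median of 0.12 against -0.02 for all genes, of which 12.9% were called, 5.84% higher and 7.1% lower. In 10 members the E8.5 arrays lay above all E7.5 arrays and in 3 below, against 14.7% and 16.9% of all genes. Orc3 had 4.91, 4.89 and 4.91 at E7.5 and 7.21, 7.18 and 6.85 at E8.5, a rise of 2.18 (SE 0.22, adjusted p = 0.0029). It was the largest change among the members, kept its call in all 13 alternatives, and was 0.60 in the authors' processed values. Orc4 had 4.32, 4.31 and 4.31 at E7.5, detected on none, and 5.83, 4.94 and 5.65 at E8.5, at least 1.9-fold higher (adjusted p = 0.02). Its other probes were not called (0.30 and -0.83, adjusted p = 0.6 and 0.14).

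Lig1 had 9.18, 9.10 and 8.74 at E7.5 and 9.87, 10.23 and 9.96 at E8.5, a rise of 1.01 (SE 0.19, adjusted p = 0.017). Dctd had 10.30, 10.09 and 9.93 at E7.5 and 9.07, 9.51 and 9.24 at E8.5, a fall of 0.83 (SE 0.18, adjusted p = 0.029) that was 0.69 with median scaling (adjusted p = 0.052). The groups of both genes were apart, and Dctd was thus also lower at the later stage here. Rrm2 (0.84), Rfc1 (0.75) and Rfc4 (0.63) were the other calls of chosen probes, with adjusted p of 0.032, 0.036 and 0.032. A second Rfc4 probe was not called (0.50, adjusted p = 0.19). A second Dut probe was called lower (-1.15, adjusted p = 0.034), while the chosen one was not (-0.06). By chosen probes, 0 of the 9 tested helicase genes were called.

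Without E7.5 replicate 2 the call of Orc3 was the 1 that held, and leaving out other arrays left 2 to 6 calls. Of the 400 probes with a difference over 4-fold between E7.5 arrays 1 and 3, 99.8% had array 2 in between. Summed over 3 epiblast and mesoderm genes the signal was 4740 to 7290 at E7.5 and 1690 to 1990 at E8.5, with 1 of the 3 detected on all E7.5 arrays and Mixl1 on none, and over 4 macrophage and leukocyte genes it was 3550 to 4950 and 400 to 917, with 2 of the 4 on all E7.5 arrays and Ptprc and Lyz2 on none. Visceral endoderm genes summed to 150 to 455 at E7.5 and 786 to 2710 at E8.5, with 4 and 8 of the 8 detected on all arrays, and endothelial genes to 727 to 849 and 274 to 545. The part of such cells in these values was not tested.

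**Figure D5:**
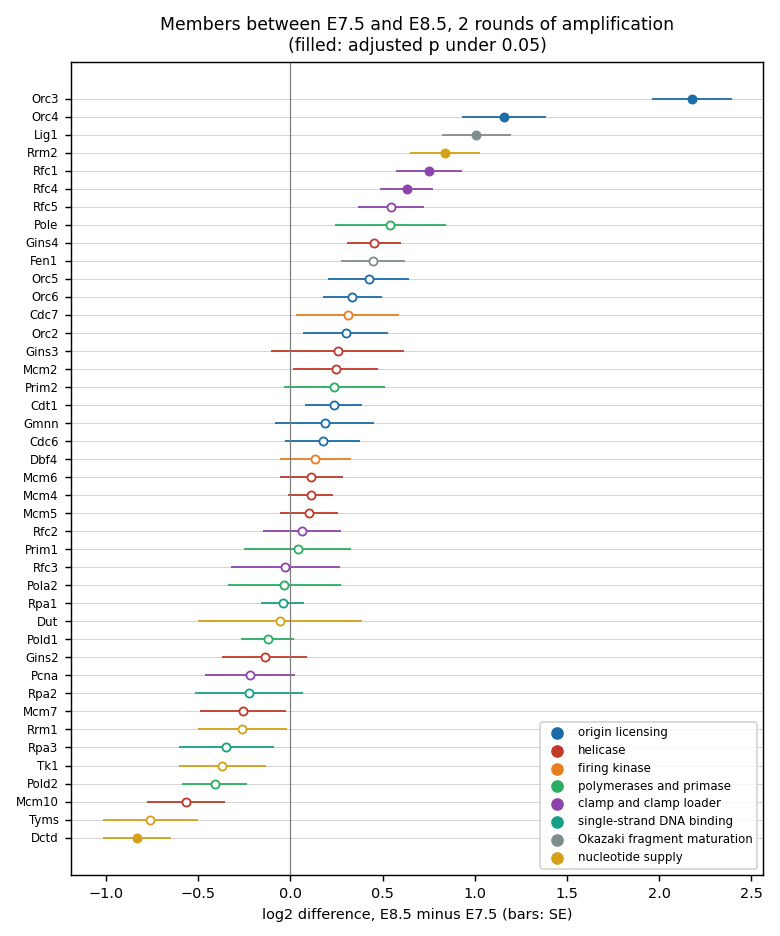
Log2 difference E8.5 minus E7.5 for the 42 members tested on the arrays with 2 rounds of amplification, with the SE as bars, coloured by role and filled where the adjusted p was under 0.05. Orc3 stands at 2.18, and Dctd, at -0.83, is the filled point below 0.

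Other genes of replication, outside the list, also fell at E12.5. Of the other replisome and fork genes, 14 of 21 tested were lower and 5 higher at E12.5 than at E8.5, against 8 and 10 with median scaling. Pold3, a further subunit of polymerase delta, Clspn, claspin of the replication checkpoint, and Chtf18, of an alternative clamp loader, were detected on no E12.5 array and were at least 4.93-fold, 6.33-fold and 4.66-fold lower under quantile normalisation. With cyclic loess these bounds were 1.87-fold, 2.24-fold and 1.91-fold, and with median scaling 1.61-fold, 2.09-fold and 1.51-fold. All 5 tested initiation factors were lower, against 2 lower and 2 higher with median scaling, with Ticrr at -1.88, Lrwd1 at -1.08 and Mtbp at -1.80, the last 0.23 with median scaling.

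Of 8 other nucleotide enzymes 7 were lower and 1 higher, against 4 and 3 with median scaling. The nucleoside diphosphate kinases Nme2 and Nme1 stood at -4.59 and -3.02 and thymidylate kinase Dtymk at -3.20, and all 3 were lower under every scaling run. Of 7 genes of replication-coupled chromatin assembly 6 were lower and 0 higher, against 4 and 1 with median scaling. Chaf1b, a subunit of the CAF-1 histone chaperone, was at -2.86, Chaf1a of the same complex was detected on no E12.5 array and at least 5.8-fold lower (2.08-fold with cyclic loess, 1.91-fold with median scaling), and Uhrf1, which guides maintenance methylation, was at -2.62, again under every scaling run.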

How the data were processed

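The deposited bead intensity of each probe is a non-normalized signal per the file headers, and the deposited detection p-value, 1 per probe and array, is named in the same headers. By their values, the arrays of slides 2 and 4 share a distribution (largest difference between arrays at a quantile 0.305% and 0.404%), unlike slides 1 and 3 (18.8% and 122%); the software behind this is not given in the sources used here. A second deposited table holds log2 values by the authors, of which the transform and centring are not stated; it was used as an alternative.

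Background was corrected with nec in limma 3.58.1 (R 4.3.3) from the detection p, with an offset of 16, then quantile normalisation was run separately over the 18 arrays with 1 round of amplification and the 6 with 2 rounds. Of 45719 probes, 29490 had 1 symbol in the platform annotation, 8 several and 16221 none; probes with several were not named. Probes with a detection p under 0.05 on at least 3 arrays of a fit entered lmFit and eBayes with trend, p-values were adjusted by Benjamini-Hochberg over the genes' chosen probes, and an adjusted p under 0.05 was called. Every contrast of the stages with 1 round shares 1 fit. A probe detected on no array of a group has only a bound there, and "at least N-fold" sets the other group's mean against the higher of its own signal and the lowest signal among detected probes on each array. Slides limit precision, as at most 6 arrays shared one.

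The members, lists, naming rule and tests were chosen with earlier results of these data known. The rule gave values on every array for the members of each role with the smallest p over the stages, for the largest rises and falls of each comparison and for members moving against their role; related genes were named by the smallest p. Mcm2, Mcm10, Cdc45, Gins2 to Gins4, Gmnn, Prim1, Rpa1 and Dut were given by test alone, and values for Orc4 follow from its call at E8.5. The design text states independent biological replicates. Replicate numbers did not pair the samples: correlations of deviations for same-numbered arrays ran from -0.141 to 0.228 with 1 round and from -0.0505 to 0.1 with 2 rounds. The labels describe E8.5 replicates 4 to 6 with the numbers 1 to 3, but their deviations did not follow those of replicates 1 to 3 (correlations -0.253, -0.0172 and -0.144), so all 6 were used. For E9.5, the label text of replicate 1 names the number 2, and arrays 1 and 2 had a correlation of 0.9865 against 0.9764 and 0.9721 for the other two pairs and 0.9903 to 0.9946 within E10.5. Other scalings, offset, filters, blocks, probes and left-out arrays were tried. The lowest stages, shares of the fall and bounds under other scalings were computed after seeing the data.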

Additional observations from a re-analysis of the deposited data

How the results depend on the processing

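From E8.5 to E9.5, 12 members were called, against 19 with median scaling, 6 with slide as a fixed block and 22 with the E8.5 arrays of slide 3 alone, an alternative chosen after seeing the data. From E9.5 to E10.5, the 1 call became 2 with median scaling, cyclic loess or an offset of 50, 4 (3 higher) with the replicate block or with the 2 groups alone, and 0 with no filter or with slide as a random block. From E10.5 to E11.5, the 3 calls became 9 with median scaling, 8 with the replicate block, 6 with slide as a random block, 24 with these 2 groups alone and 5 with every probe on its own. From E11.5 to E12.5, the 37 calls became 23 with cyclic loess, and from E7.5 to E8.5 the 7 calls became 2 with no filter; the cause of these changes was not tested.

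Leaving out each array in turn gave 8 to 14 calls from E8.5 to E9.5, 0 to 3 from E9.5 to E10.5, 1 to 5 from E10.5 to E11.5, 36 to 37 from E11.5 to E12.5, 42 from E8.5 to E12.5, 18 to 25 from E8.5 to E11.5, 41 to 42 over the stages and 1 to 6 from E7.5 to E8.5. With the replicate block the counts were 11, 37, 41 and 18 for E8.5 to E9.5, E11.5 to E12.5, E8.5 to E12.5 and E8.5 to E11.5, 41 over the stages and 5 from E7.5 to E8.5. Averaging the E8.5 arrays by description number gave 13 calls at E9.5 and 26 at E11.5.

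Of 2931 values of single members under an alternative, 2738 kept direction and call, 168 kept direction and lost the call and 25 changed sign. With median scaling these were, from E11.5 to E12.5, Orc5 (0.95), Cdc6 (0.028), Mcm10 (0.64), Cdc45 (0.47), Gins3 (1.95), Prim2 (0.53), Pole (1.47), Rfc3 (0.76) and Dut (1.5). From E8.5 to E12.5 they were Orc3 (1.60), Gmnn (1.75), Cdc45 (0.51), Gins3 (1.29), Prim1 (1.58), Prim2 (0.10), Pole (0.93), Pcna (0.10), Rfc3 (0.26) and Dut (0.64). With cyclic loess they were Orc5 (0.26), Mcm10 (0.0018), Gins3 (0.29), Pole (0.14) and Dut (0.26) from E11.5 to E12.5, and Prim1 (0.0015) from E8.5 to E12.5. Of all 43 tested members, 20 to 28 were detected on an E12.5 array. Among those that changed sign, Cdc6 and Pcna were detected on all 3 E12.5 arrays, Prim1 on 2 and Orc5 on 1. The others were detected on 0. The part of weak signals in these changes was not tested.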
